A study of Mus musculus with 6 samples.

Results

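The semaphorins, plexins, neuropilins, ephrins, Eph receptors, Slits, Robo receptors, netrins, Unc5 receptors and Dcc are the classical families of axon guidance genes. They were taken from the count table by symbol, with every gene whose full name is a family stem followed by its own number or letter, a rule that uses no measured value. This gave 69 of the 55341 genes in the table, 35 of them ligands (20 semaphorins, 8 ephrins, 3 Slits and 4 netrins) and 34 receptors (9 plexins, 2 neuropilins, 14 Eph receptors, 4 Robo receptors, 4 Unc5 receptors and Dcc). All 69 are annotated as protein coding.

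Single olfactory sensory neurons, which line the nasal cavity and detect odours, had been taken from C57BL/6 mice aged 6 weeks, 6 cells in all. Each neuron had served for physiological recording and then gave its own CEL-Seq2 library, a method that primes at the poly(A) tail and reads transcripts near their 3' ends. The libraries OSN1 to OSN6 are called cells 1 to 6 here. All 6 form 1 group, with no mutation or drug treatment named in the labels, the number of mice behind them is not given in the sources used here, and no cell has a replicate. Values are therefore given cell by cell with exact 95% intervals for counting error, and no p-value was computed between cells. These intervals cover counting error only and are too narrow if counts are amplified reads and not molecules.

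Guidance molecules act as paired signals. A ligand on or released from 1 cell binds a receptor on the growing axon of another and steers it by attraction or repulsion. Class 3 semaphorins are secreted and bind neuropilins, which signal through class A plexins, while most other semaphorins are membrane proteins that bind plexins directly. Ephrins are held at the membrane and bind Eph receptor kinases on touching cells. Slits bind Robo receptors, and netrins bind Dcc and the Unc5 receptors. In the mouse olfactory system these families are known for sorting sensory axons before and at their glomeruli in the olfactory bulb. Neuropilin 1 with Sema3a and neuropilin 2 with Sema3f act along the axes of the bulb, Robo2 with Slit1 acts on axons of the dorsal zone, and Epha5 and Efna5 are known for complementary levels among neurons of different receptor identity.

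The depth of the libraries set what could be seen. Cells 1 to 6 had totals of 8613, 34478, 122546, 60902, 22525 and 11725 counts, and levels are given as CPM, the count scaled to a library total of 1000000. A single count thus stands for 116 CPM in the shallowest library and for 8.16 CPM in the deepest. The markers of mature olfactory neurons had a median summed level of 21940.5 CPM over the libraries (16471 to 31360 CPM). All 10 of these genes were found in each of cells 1 to 5, and 6 of 10 in cell 6, where Cnga2, Cnga4, Ano2 and Rtp1 were at 0. Markers of immature olfactory neurons had a median summed level of 5029 CPM (3483 to 7422 CPM). Of these 10 genes 9 were found, and Gng8 had no count. Red blood cell markers ranged from 171 to 12610.4 CPM (4 of 5 found), gland markers from 0 to 19810 CPM (8 of 10) and sustentacular markers from 116 to 1914 CPM (6 of 8). Microvillous markers reached 1962 CPM in cell 6 through a single gene of 6. Globose basal cell, horizontal basal cell, ensheathing glia, immune, and vascular and stromal markers stayed at or below 116 CPM in every cell.

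Guidance genes were found in all 6 neurons, mostly at a few counts a gene. Of the 69 genes, 43 (62.3%) had a count in at least 1 cell, where 49.8% of all protein coding genes did. The genes found numbered 13, 25, 29, 22, 20 and 11 in cells 1 to 6. As shares of the 69 these were 18.8%, 36.2%, 42.0%, 31.9%, 29.0% and 15.9%. The shares of all protein coding genes with a count were 11.4%, 27.0%, 36.1%, 29.7%, 23.9% and 8.36%. When every cell was thinned to the 8613 counts of cell 1, the expected number of guidance genes lay between 8.65 in cell 4 and 14.0 in cell 5. At that equal depth cell 4 was the only cell whose share (12.5%) did not exceed that of protein coding genes (13.3%).

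**Figure D1:**
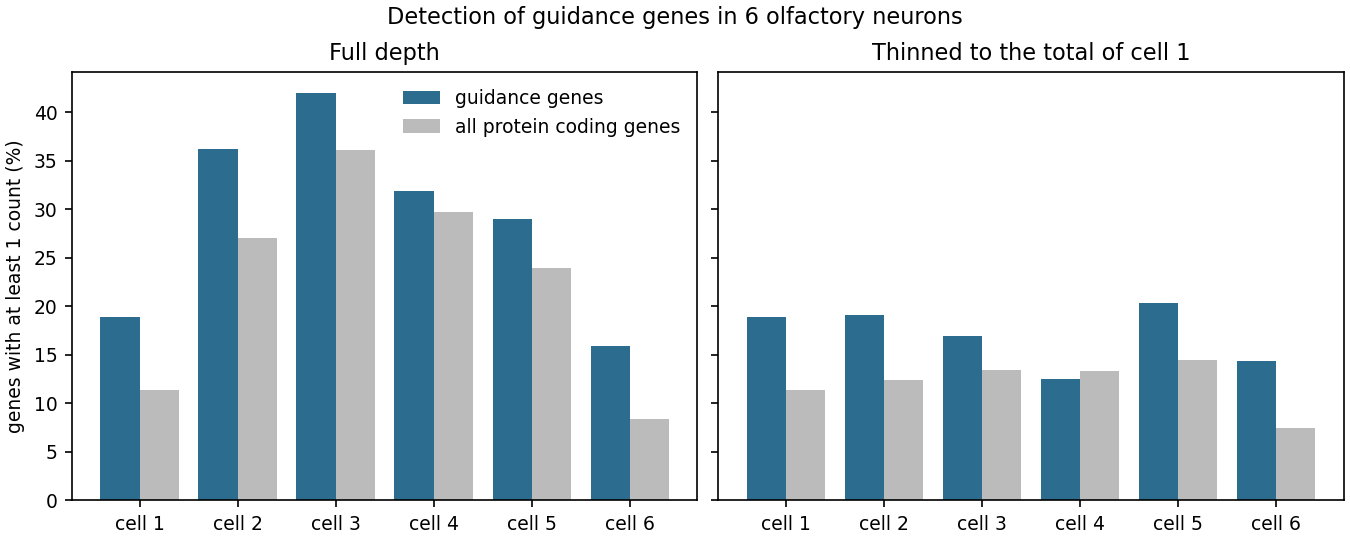
Share of genes with at least 1 count (y axis, percent) in cells 1 to 6, for the 69 guidance genes (blue) and all protein coding genes (grey), at full depth (left) and thinned to the 8613 counts of cell 1 (right). The guidance share is highest in the deepest library, cell 3, at 42.0% and lowest in cell 6 at 15.9% on the left, and lies between 12.5% in cell 4 and 20.3% in cell 5 on the right.

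A few genes carried most of the counts. Of 729 guidance counts, 552 (75.7%) came from the 9 genes with at least 20 counts: Sema7a, Plxna4, Epha5, Plxnb2, Plxnb1, Plxna3, Nrp2, Unc5b and Efna3. They are 13.0% of the 69 genes, near the 10.6% of protein coding genes that reached 20 counts. A further 16 genes had 5 to 19 counts and 18 had 1 to 4. Sema7a, Plxna4 and Plxnb2 were counted in all 6 cells, 4.35% of the 69 genes against 2.89% of protein coding genes.

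Intervals of the summed ligands overlapped between all 6 neurons, while those of the summed receptors lay apart for some of them. Overlapping intervals do not show equal levels. Ligands summed to 1161, 870, 947, 805, 1065 and 853 CPM in cells 1 to 6, and every pair of these intervals overlapped. Cells 1 and 6 had only 10 ligand counts each. Their intervals of 557 to 2135 and 409 to 1568 CPM leave room for sizeable differences. Receptors summed to 1509, 1624, 2407, 919.5, 2309 and 1535 CPM. The receptor interval of cell 4 (695 to 1194 CPM) lay wholly below those of cells 2, 3 and 5 (1227 to 2109, 2140 to 2698 and 1724 to 3027 CPM). The receptor interval of cell 2 also lay below that of cell 3. The ligand share, with its Clopper-Pearson interval, was 28.2% in cell 3 (116 of 411 guidance counts, 23.9% to 32.8%). In cell 4 it was 46.7% (49 of 105 counts, 36.9% to 56.7%). Over all cells they took 239 of 729 counts (32.8%), and 38.7% without cell 3, which alone holds 411 of the 729.

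**Figure D2:**
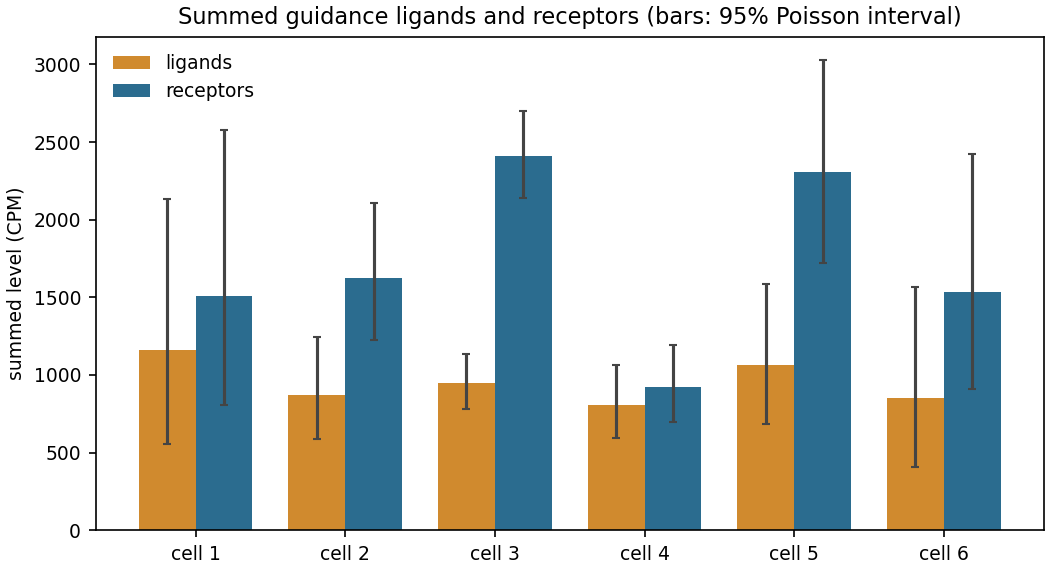
Summed level (y axis, CPM) of the 35 guidance ligands (orange) and the 34 guidance receptors (blue) in cells 1 to 6, with 95% Poisson intervals. Ligand bars stay between 805 and 1161 CPM, while the receptor bar of cell 4 stands at 919.5 CPM against 2407 CPM in cell 3.

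Sema7a led the semaphorins. It encodes a membrane-anchored semaphorin that in mouse is known to signal from olfactory axons to the dendrites of mitral cells in the bulb. The gene spans chromosome 9, 57940112 to 57962865, on the plus strand of GRCm38, with 14 merged exons. It had 6, 7, 68, 19, 8 and 2 counts in cells 1 to 6, which are levels of 697, 203, 555, 312, 355 and 171 CPM. Cells 1 and 3 were highest and cells 2 and 6 lowest, and only cells 2 and 3 had intervals that did not overlap (81.6 to 418 CPM in cell 2 and 431 to 703 CPM in cell 3). With 110 of 176 semaphorin counts (62.5%), Sema7a was the most counted guidance gene. By median CPM over cells, Plxna4 was first at 357 CPM and Sema7a second at 334 CPM. Per kilobase of merged exons Sema7a was first, at a median of 101 CPM per kilobase, ahead of Plxnb2 at 30.8 and Plxna4 at 25.3. That order favours short genes (3298 bases for Sema7a, 14103 for Plxna4), and reads from 3' ends do not call for division by length. The known partner of Sema7a, Plxnc1, had no count in any cell, which over 260789 counts allows up to 14.1 CPM.

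The other 19 semaphorins were thinly counted. Sema4d, a transmembrane ligand of plexin B1, had 15 counts, spread over cells 2 to 5 with 2, 5, 5 and 3. Sema3e, a secreted ligand of plexin D1, had 12 counts, with 7 of them in cell 3 and none in cell 4. Sema6a, a transmembrane ligand of class A plexins, had 4, 3 and 2 counts in cells 2, 4 and 5 and none elsewhere. Sema4c, a ligand of plexin B2, had 4 of its 6 counts in cell 4, but an RNA gene on the opposite strand shares 334 bases of its exons and had 10 counts of its own, so the value is uncertain. Sema3f, the ligand of neuropilin 2, had 3 counts in cell 3 and 2 in cell 4. Sema3a, the ligand of neuropilin 1, had 1 count in each of these cells. Sema4b, Sema5a, Sema6d, Sema6c, Sema4f, Sema3d, Sema4a and Sema3c had 1 to 4 counts each, and Sema3b, Sema3g, Sema4g, Sema5b and Sema6b had none.

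Among the plexins, the receptors of semaphorins, 4 genes held most of the counts: Plxna4, Plxnb2, Plxnb1 and Plxna3. Plxna4, known as the partner through which neuropilins pass on Sema3a signals, lies on chromosome 6 (32144268 to 32588192, minus strand) and had 1, 15, 55, 17, 4 and 7 counts in cells 1 to 6 (116, 435, 449, 279, 178 and 597 CPM). Plxnb2, a receptor of class 4 semaphorins on chromosome 15 (89155549 to 89180788, minus strand), had 1, 6, 31, 16, 5 and 4 counts (116, 174, 253, 263, 222 and 341 CPM). The intervals of all 6 cells overlapped for Plxnb2. For Plxna4 they overlapped as well.

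Plxnb1 and Plxna3 were set apart by cell 4, where neither had a count. Plxnb1, the receptor of Sema4d on chromosome 9 (109095389 to 109119917, plus strand), had 1, 6, 45, 0, 5 and 3 counts in cells 1 to 6 (116, 174, 367, 0, 222 and 256 CPM). Cell 4 alone had no count, and if it had the summed rate of its 5 companions, 18.3 counts would fall in a library of its size, or 11.8 without cell 3. Plxna3, which signals with neuropilin 2 and lies on chromosome X (74329066 to 74344689, plus strand), had 2, 5, 39, 0, 4 and 0 counts (232, 145, 318, 0, 178 and 0 CPM). In cell 4, 15.2 counts were due, or 8.66 without cell 3, while in cell 6 only 2.35 were due. A count of 0 allows up to 60.6 CPM in cell 4 but 315 CPM in cell 6, so a lower level of Plxna3 was not detectable in cell 6. Plxnb1 and Plxna3 together made up 32.4% of plexin counts in cell 2 (11 of 34, 17.4% to 50.5%), 47.2% in cell 3 (84 of 178, 39.7% to 54.8%) and 42.9% in cell 5 (9 of 21, 21.8% to 66.0%). Cell 4 had 33 plexin counts and none from this pair, with an upper bound of 10.6%. The pair was named for its lack of counts in cell 4, so the share of that cell was fixed by this choice. Cell 6 had 3 of 15 plexin counts from the pair (4.33% to 48.1%), an interval that overlapped that of cell 4. Cell 1 had 3 of 5 (14.7% to 94.7%).

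**Figure D3:**
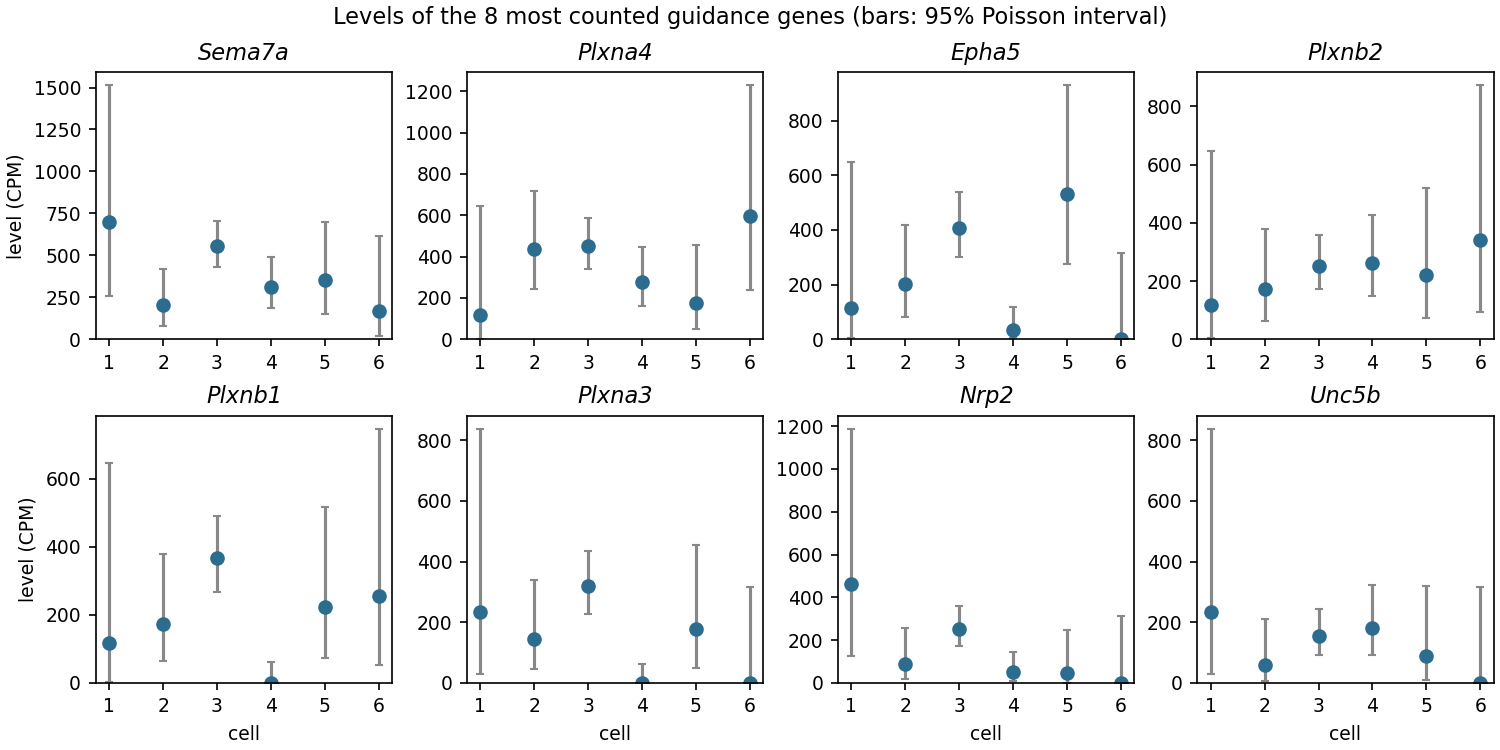
Level (y axes, CPM, separate scales) of the 8 guidance genes with the most counts in cells 1 to 6 (x axes), with 95% Poisson intervals. Plxnb1 and Plxna3 drop to 0 in cell 4 beside 367 and 318 CPM in cell 3, while Plxnb2 stands at 263 and 253 CPM in cells 4 and 3.

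Plxnb3 followed with 11 counts, 8 of them in cell 3. Plxna1 had 2 counts and Plxna2 had 1, and Plxnd1, the receptor of Sema3e, had none. The exons of 18 of the 69 genes, which hold 222 counts, overlap exons of another annotated gene. Plxna4 overlaps an antisense gene without counts, and Plxnb1 overlaps one with 3 counts, Gm7628, over 257 bases. The strand setting of the counting is not given in the sources used here, so such reads cannot be told apart.

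Neurons differed in which neuropilin was counted. Nrp2, on chromosome 1 (62703285 to 62818695, plus strand), had 4, 3, 31, 3, 1 and 0 counts in cells 1 to 6. Nrp1, on chromosome 8 (128358604 to 128503363, plus strand), had 1, 3, 1, 0, 7 and 2. Nrp2 was highest in cells 1 and 3, at 464 and 253 CPM, and Nrp1 in cell 5. The Nrp2 share of neuropilin counts was 12.5% in cell 5 (1 of 8, 0.316% to 52.7%), against 96.9% in cell 3 (31 of 32, 83.8% to 99.9%), and these intervals did not overlap. Cells 1, 2, 4 and 6 had only 5, 6, 3 and 2 neuropilin counts. The level of Nrp1 in cell 5 was 311 CPM (125 to 640 CPM), where 7 counts were found and 0.662 were due on the same reckoning, or 1.17 without cell 3. The ratio of cell 5 to cell 3, which had 1 count, was 38.1, with an interval of 4.89 to 1716. That interval does not cover the choice of these cells as extremes.

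The Eph receptors came down almost to 1 gene. Epha5, a receptor of the membrane-anchored class A ephrins on chromosome 5 (84054761 to 84417382, minus strand), had 1, 7, 50, 2, 12 and 0 counts in cells 1 to 6 (116, 203, 408, 32.8, 533 and 0 CPM). It took 72 of 93 Eph receptor counts. Cells 3 and 5 were highest, and the interval of each lay above that of cell 4 (3.98 to 119 CPM). The ratio of cell 5 to cell 4, which were taken as extremes, was 16.2 (3.61 to 149, an interval that does not cover this choice). In cell 6, 3.39 counts were due, so its 0 says little. Epha10, an Eph receptor without kinase activity, had 9 counts, 6 of them in cell 3, and Epha7 had 6. Cell 5 held 5 of these, where 0.0945 were due, or 0 without cell 3, which held the other. Of the EphB receptors, Ephb1 had 5 counts and Ephb3 had 1. Epha1, Epha2, Epha3, Epha4, Epha6, Epha8, Ephb2, Ephb4 and Ephb6 had none.

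Ephrin counts came from class A members. Efna3 had 4, 9 and 7 counts in cells 2, 3 and 4 and none in the others. Efna5 had 1, 3, 12 and 1 counts in cells 1 to 4 and none in cells 5 and 6, and Efna2 had 4 in cell 2 and 2 in cell 6. Efna4 and the class B ephrin Efnb3 had 1 count each, and Efna1, Efnb1 and Efnb2 had none. Cell 5 had 17 Eph receptor counts and no ephrin count, so the receptors took 100% of its Eph and ephrin counts, with a lower bound of 80.5%. Their share was 42.1% in cell 2 (8 of 19, 20.3% to 66.5%), 74.7% in cell 3 (62 of 83, 64.0% to 83.6%) and 35.7% in cell 4 (5 of 14, 12.8% to 64.9%). The interval of cell 5 overlapped that of cell 3 and lay above those of cells 2 and 4. Within the receptor and ligand known for complementary levels, Epha5 took 50 of 62 counts in cell 3 (80.6%), 12 of 12 in cell 5 and 7 of 10 in cell 2, so no cell with at least 10 counts of the pair had more Efna5 than Epha5.

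Slit2 was found mainly in 1 neuron. This secreted ligand of Robo receptors reached 355 CPM in cell 5 (8 counts, 153 to 699.8 CPM). Cells 3 and 4 had 1 and 2 counts, and the other cells had none. By that reckoning 0.284 counts were due in cell 5, and the ratio of cell 5 to cell 3 was 43.5 (5.84 to 1931). Cells 5 and 3 were taken as extremes for Slit2, a choice that the interval does not cover. Slit1, the ligand of Robo2 in the dorsal epithelium, had 3 counts in cell 3 and 1 in cell 1, and Slit3 had 2 in cell 2. Robo1 had 1, 3 and 3 counts in cells 2, 4 and 5, and Robo2 had 4 in cell 2 and 1 each in cells 3 and 5. Robo3, and Robo4 of blood vessels, had none. In cell 5 the Slit2 counts stood beside 7 of Nrp1, 5 of Epha7 and 3 of Robo1. In that cell, gland markers reached 5150 CPM, red blood cell markers 2575 CPM, ensheathing glia markers 44.4 CPM with 1 of 8 genes found, and vascular and stromal markers 0 CPM. The part of the gland and red blood cell RNA in these counts was not tested.

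**Figure D4:**
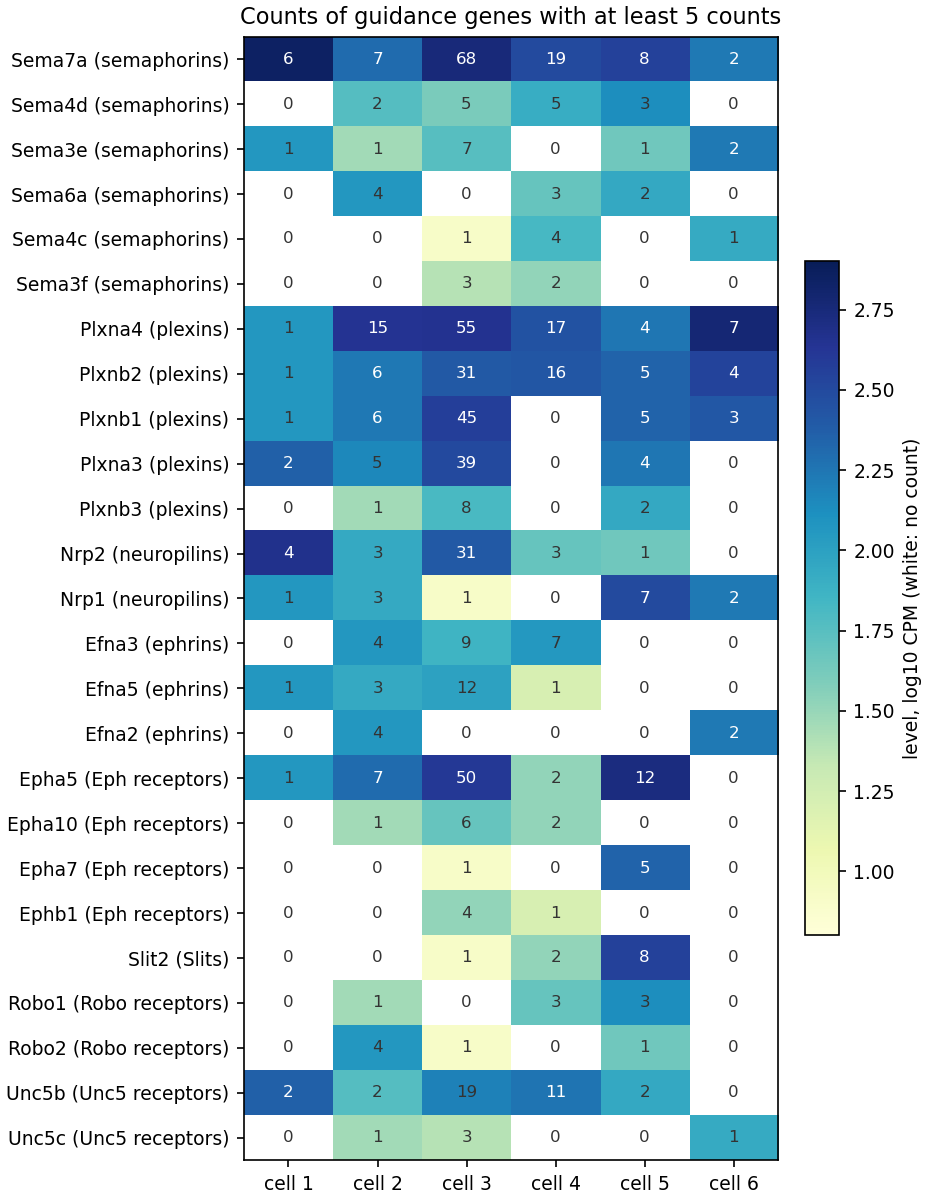
Counts (numbers) and level (colour, log10 CPM, white for no count) of the 25 guidance genes with at least 5 counts, by family (rows) and cell (columns). Sema7a, Plxna4 and Plxnb2 fill all 6 columns, Plxnb1 has its only empty cell in cell 4, and Slit2 has 8 of its 11 counts in cell 5.

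For netrin signals, the repulsive receptor Unc5b was present and the attractive receptor and most ligands were not found. Unc5b had 2, 2, 19, 11, 2 and 0 counts in cells 1 to 6 (232, 58.0, 155, 181, 88.8 and 0 CPM), with overlapping intervals throughout. Unc5c had 5 counts, Unc5d 1 and Unc5a none. Dcc, the attractive netrin receptor, had no count in any cell, which allows up to 14.1 CPM over all cells and 30.1 CPM in cell 3. Ntn4 had 1 count, and Ntn1, Ntn3 and Ntn5 had none. Neo1, which encodes the Dcc relative neogenin, had 3 counts over all cells.

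Cells 3 and 4 differed in several receptors and share their leading odorant receptor gene. They are the deepest libraries, and Olfr741 was the odorant receptor gene with the most counts in both, at 3468 and 3169 CPM. A shared leading gene was not particular to this pair. Olfr740 led both cell 1 and cell 2, while Olfr743 led both cell 5 and cell 6. Cells 3 and 4 were chosen for description after the values were seen. Of the 9 guidance genes with at least 10 counts in either cell, 4 were at least 4-fold higher in cell 3 than in cell 4, where 5.46% of all such genes were. None of the 9 was 4-fold higher in cell 4, where 8.72% of all such genes were. A cell with fewer than 3 counts of a gene was set to 3 counts for these counts of genes. Of this pair of cells, the 4 genes reached 10 counts only in cell 3, the deeper library, so nothing is read from their share.

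The 4 genes were the receptors Epha5, Plxnb1, Plxna3 and Nrp2. With cell 4 set to the level of 3 counts, Plxnb1 was 7.45-fold higher in cell 3 and Plxna3 6.46-fold. With the counts of cell 4 as found and counting error in both cells, the lower 95% limits of the ratios were 5.82 and 5.01. From the counts as found, Epha5 had a ratio of 12.4 (50 and 2 counts, 3.26 to 105) and Nrp2 of 5.14 (31 and 3 counts, 1.60 to 26.3). The ligand Efna5 had a ratio of 5.96, but its 12 counts in cell 3 and 1 in cell 4 left an interval of 0.882 to 255. Of the other genes tested, Sema7a had a ratio of 1.78 (1.06 to 3.13), Plxna4 of 1.61 (0.919 to 2.96), Plxnb2 of 0.963 (0.511 to 1.88) and Unc5b of 0.858 (0.388 to 1.997). Efna3, which stayed under 10 counts in both cells, had a ratio of 0.639 (0.212 to 2.02). The intervals of Efna5, Plxna4, Plxnb2, Unc5b and Efna3 include 1, so a difference in these genes was not detectable at this depth. Summed, the receptors had a ratio of 2.62 (1.96 to 3.55) and the ligands of 1.18 (0.836 to 1.68). Without the 4 genes, which were picked for this difference, the other 30 receptors had a ratio of 1.27 (0.910 to 1.79). That interval includes 1, but leaving out genes picked for a high ratio lowers the ratio of the rest. The value for the other 30 receptors therefore cannot decide whether the receptors differed as a class.

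Other transcripts also set these cells apart. Mature olfactory neuron markers stood at 31360 CPM in cell 3 and 17323 CPM in cell 4, and immature neuron markers at 3517 and 7422 CPM. Ncam1 alone gave 1297 and 2036 CPM of the immature sums. Red blood cell markers stood at 4080.1 CPM in cell 3 and 12610.4 CPM in cell 4, sustentacular markers at 286 and 887 CPM and gland markers at 979 and 361 CPM. Their part in the receptor difference was not tested.

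**Figure D5:**
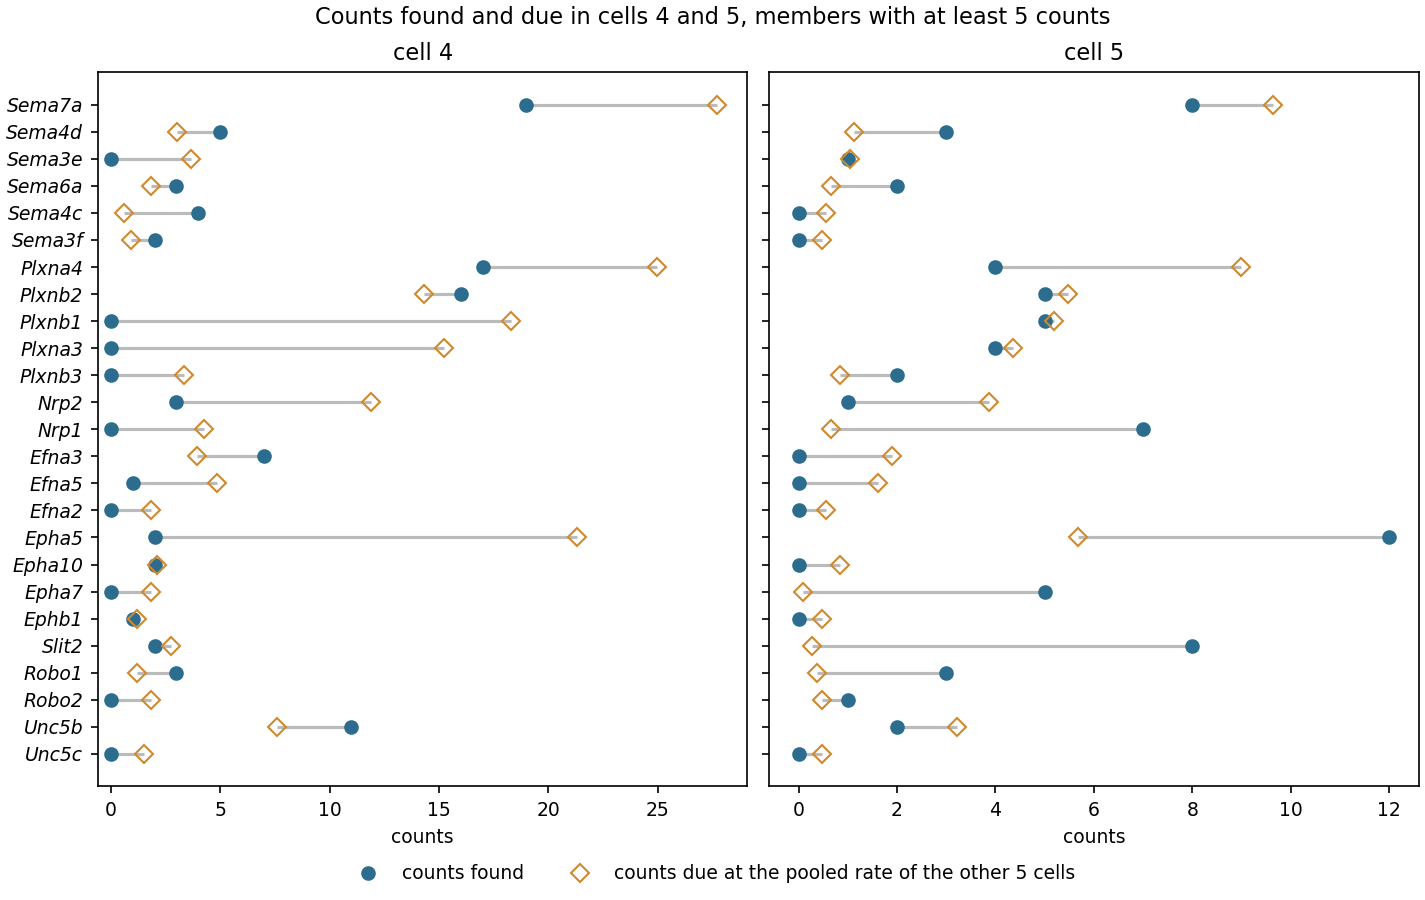
Counts found (filled circles) and counts due at the summed rate of the other 5 (open diamonds) on the x axis, for the 25 guidance genes with at least 5 counts, in cell 4 (left) and cell 5 (right). In cell 4, Epha5, Plxnb1 and Plxna3 had 2, 0 and 0 counts with 21.3, 18.3 and 15.2 due, and in cell 5, Slit2, Nrp1 and Epha7 had 8, 7 and 5 counts with 0.284, 0.662 and 0.0945 due.

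Over all 6 cells, the same 4 genes had a highest level at least 4-fold above the lowest. They were 4 of the 9 guidance genes with at least 10 counts in a cell (44.4%), where 34.6% of all such genes met this rule, so the share was near the background. With the highest level taken only from cells with at least 10 counts, the same 4 genes were counted against a background of 23.5%. Without cell 3 only Epha5 met the rule, and without cell 4 only Nrp2 did.

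The promoters of 2 of these 4 receptor genes held a motif of a factor class known from olfactory neurons, and they are printed for that reason. The windows, from RefSeq on GRCm38.p6, run from 250 bases before the transcription start to 50 after it, 5′ to 3′ on the gene's strand. Windows were at hand for 59 of the 69 genes. Capitals mark the EBF palindrome (TCCC, any pair of bases, then GGGA) in Plxnb1 (chr9:109095186-109095485, plus strand) and the homeodomain core TAATTA in Epha5 (chr5:84417333-84417632, minus strand).
Plxnb1: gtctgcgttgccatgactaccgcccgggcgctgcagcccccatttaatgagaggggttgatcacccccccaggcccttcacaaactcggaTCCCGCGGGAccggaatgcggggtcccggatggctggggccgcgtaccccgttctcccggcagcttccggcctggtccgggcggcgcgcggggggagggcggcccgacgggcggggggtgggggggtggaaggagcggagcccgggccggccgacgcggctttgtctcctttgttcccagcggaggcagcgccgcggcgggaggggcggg
Epha5: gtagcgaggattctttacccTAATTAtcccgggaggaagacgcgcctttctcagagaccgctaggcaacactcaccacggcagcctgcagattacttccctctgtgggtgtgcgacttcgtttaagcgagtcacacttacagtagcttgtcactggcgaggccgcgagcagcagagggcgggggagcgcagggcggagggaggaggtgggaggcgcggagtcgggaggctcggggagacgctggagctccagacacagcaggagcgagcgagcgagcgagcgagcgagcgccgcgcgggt
Both strands were searched. The EBF palindrome was in 0.905% of all 32817 windows and in those of Plxnb1, Robo3 and Sema4b among the 69 genes, its centre 155 bases before the start in Plxnb1. The homeodomain core was in 5.30% of all windows and in those of Epha5, Efna1 and Robo3, 227 bases before the start in Epha5. The windows of Plxna3 and Nrp2 held neither. The cAMP response element TGACGTCA was in 1.79% of all windows and, among the 69 genes, only in that of Epha2, which had no counts. A match describes these letters and does not show that a factor binds there.

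Some partners of these receptors outside the named families were counted as well. These genes, like the other lists, were chosen with earlier results of these data known. Of 21 co-receptors and further ligands, 12 were found, where 49.8% of all protein coding genes had a count in any cell. They summed to a median of 835.5 CPM (232 to 1314 CPM). Flrt1 led them, a member of the transmembrane FLRT proteins that bind Unc5 receptors, with 2, 15, 86, 26, 10 and 5 counts in cells 1 to 6 (232, 435, 702, 427, 444 and 426 CPM). L1cam, an adhesion molecule that can join the neuropilin 1 receptor, had a median of 134 CPM, with 15 counts in cell 3 and 21 in cell 4. Ryk, a receptor of Wnt ligands, had 19 counts in cell 3 and 19 in cell 4. Rgmb, a ligand of neogenin, had 14 counts, and Nrcam, an adhesion molecule that pairs with neuropilin 2, had 4. None of the 3 genes with at least 10 counts in cell 3 or cell 4 (Flrt1, L1cam and Ryk) was 4-fold apart between them.

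Inside the cell, 33 of 40 mediators of guidance signals were found, with a median sum of 3495 CPM (2206 to 4484 CPM). Of all protein coding genes 49.8% had a count in any cell. As the list was chosen with earlier results known, the number found is only a description. Mycbp2, a ubiquitin ligase of axon development, had a median of 717 CPM (426 to 932 CPM). The actin-severing protein cofilin, Cfl1, had 453 CPM (319 to 1194 CPM), the kinase Rock1 had 210 CPM and the actin regulator Enah had 201 CPM. Crmp1, named for its role in the response to semaphorins, had 7, 1 and 10 counts in cells 4 to 6 and none in cells 1 to 3. Of the 14 mediators with at least 10 counts in cell 3 or cell 4, 4 were at least 4-fold higher in cell 3: Arhgef12, whose product binds class B plexins, Enah, Mical3 and Rock2. They had 32, 35, 31 and 27 counts in cell 3 and 2, 2, 1 and 1 in cell 4, and so reached 10 counts only in cell 3. Fyn, a kinase downstream of several guidance receptors, was 4-fold higher in cell 4, with 2 counts in cell 3 and 10 in cell 4. Of all such genes, 5.46% were 4-fold higher in cell 3 and 8.72% in cell 4, and nothing is read from the mediators' shares for the same reason as above. Arhgef12, Mical3, Rock2 and Fyn are named after their values were seen.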

How the data were processed

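The authors deposited raw counts per gene symbol for 6 single neurons, 1 column per cell, with 55341 genes. Per the labels, only read 2 was aligned, with barcode and molecular identifier kept in the read names. Per the submitters' processing notes, CASAVA, Bowtie2 2.3.4 and HTSeq were used with build mm10. No source used here states the strand setting, the annotation or the treatment of molecular identifiers, so a count may be a molecule or a read.

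Positions, gene types and merged exons came from GENCODE M21 (GRCm38), in which all 55341 symbols were found. CPM is a count over the cell's total, times 1000000, and is not divided by length, because reads come from 3' ends. Exact Poisson intervals were used for levels, exact Clopper-Pearson intervals for shares, and exact conditional intervals for ratios, all at 95% (scipy 1.17.1). As a level, a count of 0 was given its exact upper limit. For the 4-fold rules, counts under 3 were set to 3. Thinned numbers are exact hypergeometric expectations, tested on simulated data. Counts due in a cell are the pooled rate of the other cells times its total. Genes with at least 20 counts are given in every cell, and those with 5 to 19 with their total. Of the partner and mediator lists the 4 genes with the highest median and Neo1, Nrcam and Crmp1 are named. The members and lists were chosen with earlier results of these data known. The alternatives were other detection limits, 4 scalings (TMM from edgeR 4.0.16 among them), exon overlaps left out, length scaling and each cell left out. Added after the data were seen were cells under 20000 counts left out, the order by pooled CPM, and the highest level taken from cells with at least 10 counts. Protein sequences are not used here.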

Additional observations from a re-analysis of the deposited data

Results flagged for a closer look

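In cell 5, Slit2 (355 CPM, 8 counts), the Slits summed (355 CPM), Epha7 (222 CPM, 5 counts) and Robo1 (133 CPM, 3 counts) stood farther above the next cell than Dixon's 95% limit for 6 values allows. In cell 6, Unc5c (85.3 CPM) did so on a single count. Of 38 sets of 6 values examined, 5 passed this limit. Chance flags about 1 in 20 groups of normally distributed values, a rate that does not carry over to sparse counts from libraries of unequal depth. The Slits summed repeat the 8 counts of Slit2, and the Robo1 and Unc5c values rest on 3 counts or fewer.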

How the results depend on the processing

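Of 208 alternative values, 175 stayed within 1.5 times a count of genes, the counting interval of a sum or share, or the spread between cells, and 33 moved further. The ligand share is a share of counts, which the scalings cannot change. The medians of the 9 most counted genes moved by less than the spread between cells in all 90 of theirs, which are part of the 175. A median over the same cells can hardly move further than that, so these 90 say little about stability. The median of Efna3, 36.7 CPM, was 73.4 CPM without cell 1 and 0 CPM without cell 2. Detection depended on depth. At 2 counts, 4 and 16 guidance genes were found in cells 1 and 2, and at 3 counts 2, 13, 18, 10, 11 and 4 in cells 1 to 6 and 27 in any cell. Thinned to the shallowest total, 13.2, 11.7 and 8.65 were expected in cells 2 to 4. Protein coding totals gave summed levels of 3398, 4305 and 2325 CPM in cells 2 to 4 and a median of 3482 CPM. TMM scaling gave 3228, 4867, 2135 and 1518 CPM in cells 2, 3, 4 and 6. Scalings shifted every gene of a cell by -0.65 to 0.54 log2 units. TMM turned the cell 3 to cell 4 log2 ratios of Plxnb2 and Unc5b, which were -0.05 and -0.22, to 0.17 and 0.01. Without genes whose exons overlap another gene, among them Plxna4 and Plxnb1, the sums were 1595, 2342, 1199, 2619 and 1109 CPM in cells 2 to 6, 5 genes were found in cell 6, and ligands took 41.6%. Leaving out each cell in turn, ligands took 30.4% to 38.7%, 39 to 43 genes were found in any cell, and between 1 and 4 genes had a 4-fold range. That number was 8 at 2-fold, 2 at 8-fold, 14 with no minimum count, and 5 with TMM, which added Sema7a. No paired analysis was possible because the 6 cells form 1 group. Cells 1 and 6, with 8613 and 11725 counts, give an exact upper limit of 428 and 315 CPM to a gene at 0.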
